A study of Oryctolagus cuniculus with 24 samples.

Results

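The subject is a group of 10 enzymes that build chondroitin sulfate and dermatan sulfate chains, measured in cultured primary keratocytes of the rabbit cornea, the cells that live between the collagen layers of its stroma. The members were taken by name, and all 10 of them were among the 23428 genes of the deposited count table and passed the filter on low counts. RNA from 24 libraries was sequenced, 8 in each of 3 culture conditions. All cells were at passage 1, were plated on glass coated with collagen in serum-free medium and were harvested on day 6. The TGF-β1 condition, which the labels call myofibroblast, received 5 ng/mL TGF-β1 in serum-free medium from day 1. The FBS condition, which the labels call fibroblast, was changed to DMEM with 10% fetal bovine serum on day 3. The serum-free condition, called keratocyte, had serum-free medium throughout. Base medium and days of exposure differ between the FBS condition and the others, and they cannot be told apart from serum. The labels do not tell whether libraries of a condition are separate animals or separate cultures, so the p-values below cover the spread among these libraries, and that spread may be technical.

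Chondroitin sulfate is a chain of alternating glucuronic acid and N-acetylgalactosamine that is built in the Golgi on a serine of a core protein. Xylosyltransferase places the first sugar of a short linker, an N-acetylgalactosaminyltransferase commits the linker to chondroitin rather than heparan sulfate, and synthases working with partner proteins lengthen the chain. Sulfotransferases then decorate it, and dermatan sulfate arises where an epimerase turns glucuronic acid into iduronic acid. In the corneal stroma dermatan sulfate is carried mainly by decorin, beside the keratan sulfate of lumican and keratocan.

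Total counts per library ran from 15410285 to 20911192 with TGF-β1, from 15659561 to 22528261 with FBS and from 17151397 to 21540864 in serum-free medium. The libraries are numbered 5 to 12 in each condition, and numbers 5 to 8 (replicates 1 to 4, set 1) stood apart from numbers 9 to 12 (replicates 5 to 8, set 2). FBS replicates 5 and 6 also stood apart from FBS replicates 7 and 8, with a squared difference over counting variance of 47.7 to 76.6 per gene against 3.07 between replicates 7 and 8. Where an enzyme's call changed in a set alone or without FBS replicates 5 and 6, those values stand beside it. The fold changes against serum-free medium printed for genes outside the 10 carry their set 1 and set 2 values where a set-by-treatment term was called. The 7 keratocyte markers of the labelled cell type summed to 8625 to 12878 CPM (counts scaled to library size with TMM factors) with TGF-β1, 1862 to 3438 CPM with FBS and 23452 to 29745 CPM in serum-free medium, and they did not move alike. Keratocan (KERA) averaged 293 ± 46.2 CPM with TGF-β1, 237 ± 113 CPM with FBS and 8807 ± 1328 CPM in serum-free medium (mean ± SD, n = 8 here and below). LUM, the lumican core protein, averaged 6862 CPM with TGF-β1 and 832 CPM with FBS (log2 fold change 3.04, edgeR adjusted p = 2.78e-13). AQP1, a water channel, was higher with TGF-β1 (1568 CPM) than in serum-free medium (584 CPM). The 4 myofibroblast markers found summed to 2073 to 4414 CPM with TGF-β1, 464 to 1135 CPM with FBS and 10.7 to 46.0 CPM in serum-free medium. POSTN, the matrix protein periostin, carried most of the TGF-β1 sum, at 2460 CPM with TGF-β1 and 50.1 CPM with FBS (log2 fold change 5.62, edgeR adjusted p = 3.52e-15). ACTA2, the α-smooth muscle actin gene that marks myofibroblasts, averaged 231 ± 125 CPM with TGF-β1, 479 ± 221 CPM with FBS and 2.92 ± 2.10 CPM in serum-free medium, and was the marker of that list called lower with TGF-β1 than with FBS (-1.05, edgeR adjusted p = 0.0127). ACTG2 was called higher (0.80, edgeR adjusted p = 0.0144), and TAGLN did not pass (0.67, edgeR adjusted p = 0.0531) except with the replicate block (adjusted p = 0.00597). The 5 epithelial markers found summed to at most 0.403, 0.196 and 0.764 CPM in any library of these conditions in the same order. The 6 vascular and corneal endothelial markers summed to 53.1 to 114.6 CPM with TGF-β1, 19.95 to 26.4 CPM with FBS and 250 to 369 CPM in serum-free medium, most of it KDR, while PECAM1 averaged 0.283, 0.679 and 0.0652 CPM. The 5 immune markers summed to 5.66 to 9.33 CPM, 11.9 to 26.3 CPM and 2.39 to 4.89 CPM, carried by CD68 at 6.63, 18.3 and 2.35 CPM. CD68 was called higher in both treatments (TGF-β1 1.49 and FBS 2.95 over serum-free, edgeR adjusted p = 1.07e-06 and 1.65e-12), while PTPRC, the pan-leukocyte marker, averaged 0.0288, 0.0972 and 0.147 CPM. The 6 Schwann and melanocyte markers summed to 1.61 to 5.13 CPM, 1.71 to 2.96 CPM and 10.2 to 16.1 CPM. The part of these other cells in the results was not tested. In bulk RNA, fewer cells of a type and less RNA per cell cannot be told apart.

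With TGF-β1, 8 of the 10 enzymes were higher than in serum-free medium, 1 was lower and 1 was not called (edgeR quasi-likelihood test, adjusted p under 0.05). Of all 13308 genes tested, 31.2% were called higher and 33.1% lower, 64.3% in all. The median log2 fold change was 0.80 over the 10 enzymes and -0.03 over all genes. With FBS against serum-free medium, 4 enzymes were higher, 4 were lower and 2 were not called, against 39.5% higher and 40.5% lower over all genes, 80% in all. The medians were 0.05 over the enzymes and -0.04 over all genes. TGF-β1 against FBS gave 8 higher, 1 lower and 1 not called, against 36.9% and 36.4% of all genes, 73.3% in all, with medians of 1.12 and 0.01. The libraries of the groups did not overlap for 7, 5 and 8 enzymes in these comparisons, against 33.9%, 52.9% and 46.2% of all genes in either direction. The comparisons with serum-free medium share their control libraries.

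**Figure D1:**
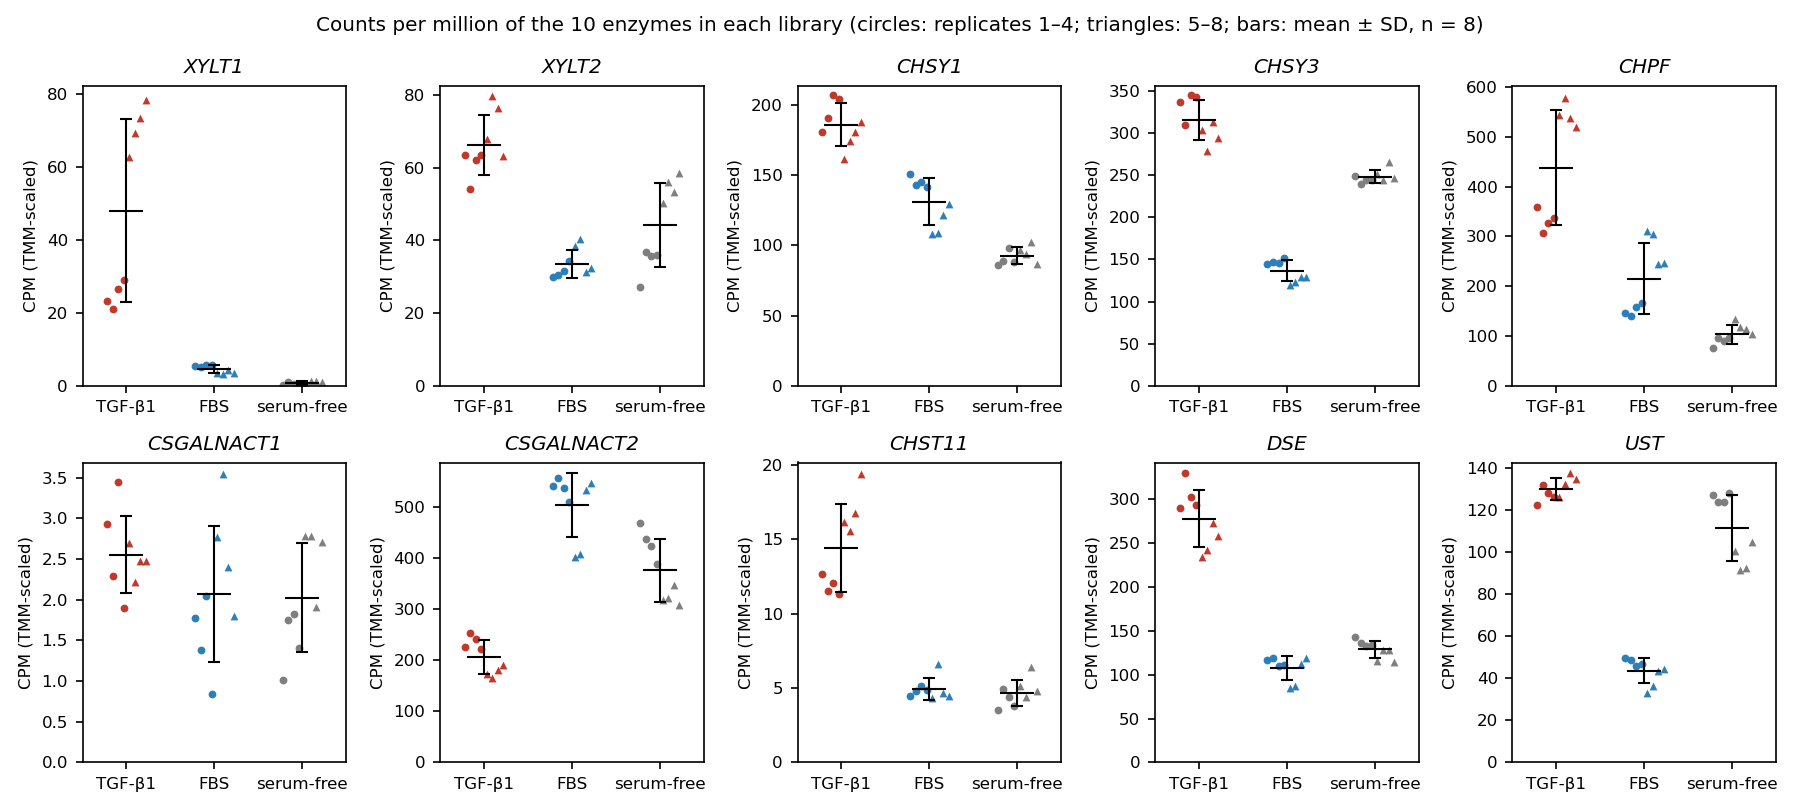
CPM of each enzyme (vertical axis, from 0) in the TGF-β1, FBS and serum-free libraries. Circles are replicates 1 to 4, triangles are replicates 5 to 8, and bars are mean ± SD of 8 libraries. XYLT1 lay at 21.2 CPM or more in every TGF-β1 library and at 1.48 CPM or less in every serum-free library, and CSGALNACT2 was the enzyme whose TGF-β1 libraries all lay below those of both other conditions.

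XYLT1 and XYLT2, which encode the xylosyltransferases that start the linker, differed most in how far they moved. XYLT1 lies on chromosome 6 at 9618486 to 9847363 (minus strand) and XYLT2 on chromosome 19 at 37356381 to 37368924 (minus strand). All positions are those of the authors' count table, for which no source used here names a genome build. XYLT1 had 21.2, 46.0 and 78.4 CPM in its lowest, median and highest library with TGF-β1, 3.29, 4.71 and 5.87 CPM with FBS, and 0.153, 0.830 and 1.48 CPM in serum-free medium. The 3 conditions did not overlap, and every TGF-β1 library of set 1 (21.2 to 29.1 CPM) lay below every one of set 2 (62.8 to 78.4 CPM). XYLT1 rose with TGF-β1 by 5.88 on the log2 scale, 58.7-fold (SE 0.37, edgeR adjusted p = 2.15e-13), on 3 to 26 counts per serum-free library. The rise was 5.58 in set 1 and 6.00 in set 2. With FBS it rose by 2.49 (SE 0.36, edgeR adjusted p = 5.62e-07), 3.40 in set 1 and 1.72 in set 2. Between TGF-β1 and FBS the log2 fold change was 3.39 (SE 0.31, edgeR adjusted p = 1.75e-10), and it was larger in set 2 (4.28) than in set 1 (2.18).

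XYLT2 ran from 54.2 to 79.8 CPM with TGF-β1, from 30.0 to 40.3 CPM with FBS and from 27.3 to 58.4 CPM in serum-free medium. The TGF-β1 libraries overlapped the serum-free ones only at their lower end and lay wholly above the FBS libraries. The log2 fold change of XYLT2 was 0.58 for TGF-β1 against serum-free (SE 0.13, edgeR adjusted p = 0.000269) and 0.98 for TGF-β1 against FBS (edgeR adjusted p = 1.44e-07). For FBS against serum-free it was -0.40 (edgeR adjusted p = 0.00628), a call that was lost in set 1 (-0.09) and with total library size as the only scaling (-0.15).

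CSGALNACT1 and CSGALNACT2 encode the N-acetylgalactosaminyltransferases that commit the linker to chondroitin. CSGALNACT2, on an unplaced sequence named Un0107 at 394066 to 443795 (plus strand), was the member that fell with TGF-β1. Its lowest, median and highest libraries had 166, 206 and 252 CPM with TGF-β1, 402, 535 and 556 CPM with FBS, and 308, 367 and 467 CPM in serum-free medium. All TGF-β1 libraries lay below all libraries of the other conditions, and the FBS libraries lay higher than the serum-free ones with some overlap. CSGALNACT2 fell with TGF-β1 against serum-free medium (log2 fold change -0.86, SE 0.11, edgeR adjusted p = 1.35e-07), by nearly the same amount in set 1 (-0.86) and set 2 (-0.86). Against FBS it fell by 1.29 on the log2 scale (edgeR adjusted p = 5.65e-11). FBS raised it by 0.42 (SE 0.11, edgeR adjusted p = 0.000931).

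CSGALNACT1, on chromosome 15 at 4064658 to 4238137 (minus strand), was scarce in every condition. It had 26 to 60 counts per library with TGF-β1 (1.90 to 3.45 CPM), 22 to 69 with FBS (0.844 to 3.55 CPM) and 20 to 59 in serum-free medium (1.02 to 2.78 CPM). The 3 conditions overlapped, and no comparison passed (log2 fold changes 0.34, 0.03 and 0.31 for TGF-β1 against serum-free, FBS against serum-free and TGF-β1 against FBS, with edgeR adjusted p = 0.229, 0.921 and 0.252). In set 1 alone the TGF-β1 libraries passed against serum-free medium (0.82, edgeR adjusted p = 0.0278) and FBS (0.81, edgeR adjusted p = 0.024), while the set 2 values were -0.04 and -0.09. The TGF-β1 against FBS difference also passed without FBS replicates 5 and 6 (0.58, edgeR adjusted p = 0.0345).

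The chain is lengthened by the synthases CHSY1 and CHSY3 with CHPF, the chondroitin polymerizing factor that partners them. CHPF, on chromosome 7 at 160730663 to 160735424 (minus strand), had 307, 439 and 577 CPM in its lowest, median and highest library with TGF-β1, 140, 206 and 312 CPM with FBS, and 75.3, 100.3 and 135 CPM in serum-free medium. Both treatments lay wholly above serum-free medium, and the TGF-β1 and FBS ranges overlapped between 307 and 312 CPM. Within each condition set 2 was the higher set, at 519 to 577 CPM against 307 to 359 CPM with TGF-β1 and at 245 to 312 CPM against 140 to 166 CPM with FBS. CHPF rose 4.23-fold with TGF-β1 (log2 2.08, SE 0.19, edgeR adjusted p = 2.66e-10) and 2.08-fold with FBS (log2 1.05, SE 0.18, edgeR adjusted p = 8.00e-06). Compared within a set, TGF-β1 and FBS did not overlap, and the pooled difference was 1.03 (SE 0.18, edgeR adjusted p = 1.39e-05).

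CHSY1, on chromosome 17 at 84756059 to 84802890 (plus strand), ran from 161 to 207 CPM with TGF-β1, from 108 to 150 CPM with FBS and from 86.2 to 102 CPM in serum-free medium. No condition overlapped another. It rose by 1.01 with TGF-β1 (SE 0.08, edgeR adjusted p = 1.12e-11) and by 0.50 with FBS (SE 0.08, edgeR adjusted p = 1.24e-06). The TGF-β1 against FBS difference of 0.51 (edgeR adjusted p = 1.36e-06) dropped to 0.10 and was not called (adjusted p = 0.243) with total library size as the only scaling, under which the median of all genes in that comparison moved to -0.39. CHSY3, on chromosome 3 at 13350442 to 13621112 (plus strand), had 278, 311 and 344 CPM in its lowest, median and highest library with TGF-β1, 120, 137 and 152 CPM with FBS, and 240, 245 and 266 CPM in serum-free medium. Its conditions did not overlap either, in the order TGF-β1, serum-free, FBS. CHSY3 rose with TGF-β1 by 0.35 (SE 0.06, edgeR adjusted p = 3.30e-05) and fell with FBS (log2 fold change -0.86, SE 0.06, edgeR adjusted p = 2.16e-12). TGF-β1 against FBS gave 1.21 (SE 0.06, edgeR adjusted p = 3.61e-15). CHPF2, the other partner protein of the synthases and outside the 10, was 183 ± 27.1 CPM with TGF-β1, 113 ± 27.3 CPM with FBS and 170 ± 26.4 CPM in serum-free medium. It fell with FBS (-0.59, edgeR adjusted p = 0.000168) and did not pass with TGF-β1 (0.10, edgeR adjusted p = 0.494).

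CHST11 encodes the sulfotransferase that puts sulfate on the 4-O position of N-acetylgalactosamine in chondroitin, and lies on chromosome 4 at 83551182 to 83794990 (plus strand). Its lowest, median and highest libraries had 11.3, 14.1 and 19.4 CPM with TGF-β1, 4.35, 4.76 and 6.64 CPM with FBS, and 3.52, 4.63 and 6.41 CPM in serum-free medium. The TGF-β1 libraries stood above all others, and the FBS and serum-free libraries covered nearly the same range. CHST11 rose 3.08-fold with TGF-β1 (log2 1.62, SE 0.14, edgeR adjusted p = 8.98e-11), and the difference from FBS was 1.55 (edgeR adjusted p = 1.02e-10). FBS against serum-free did not pass (0.08, SE 0.14, edgeR adjusted p = 0.615), but was called higher with total library size only (0.33, adjusted p = 0.041), where the median of all genes moved to 0.21.

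DSE encodes dermatan sulfate epimerase, which makes iduronic acid within the chain, and lies on chromosome 12 at 104528416 to 104603924 (plus strand). It had 234, 281 and 330 CPM in its lowest, median and highest library with TGF-β1, 84.6, 111 and 119 CPM with FBS, and 115, 130 and 143 CPM in serum-free medium. The TGF-β1 libraries again lay above all others, and the FBS libraries overlapped the low end of the serum-free ones. DSE rose 2.15-fold with TGF-β1 (log2 1.11, SE 0.09, edgeR adjusted p = 1.42e-11), 1.16 in set 1 and 1.05 in set 2. Against FBS the value was 1.37 (SE 0.09, edgeR adjusted p = 9.73e-14). With FBS it fell (-0.27, SE 0.08, edgeR adjusted p = 0.0057), a call that was lost without FBS replicates 5 and 6 (-0.16, adjusted p = 0.0552) and with total library size only, where the value was near 0 (adjusted p = 0.957).

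UST encodes uronyl 2-sulfotransferase, which acts on the uronic acids of the chain, and lies on an unplaced sequence named Un0102 at 829979 to 1018992 (minus strand). It had 122, 130 and 137 CPM in its lowest, median and highest library with TGF-β1, 32.9, 45.0 and 49.8 CPM with FBS, and 91.5, 114 and 128 CPM in serum-free medium. The FBS libraries lay far below both other conditions, which overlapped each other. UST fell with FBS to 0.390 of its serum-free level (log2 fold change -1.36, SE 0.09, edgeR adjusted p = 2.08e-13), -1.39 in set 1 and -1.30 in set 2. It was higher with TGF-β1 than with FBS by 1.58 (SE 0.09, edgeR adjusted p = 1.61e-14). The TGF-β1 difference from serum-free medium was 0.22 (SE 0.09, edgeR adjusted p = 0.0303), 0.02 in set 1, where it did not pass, and 0.45 in set 2. The same call did not hold with scaling by total counts (0.09) or when serum-free replicate 5, 6, 7 or 8 was left out (0.19 to 0.21, adjusted p = 0.0519 to 0.0694).

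**Figure D2:**
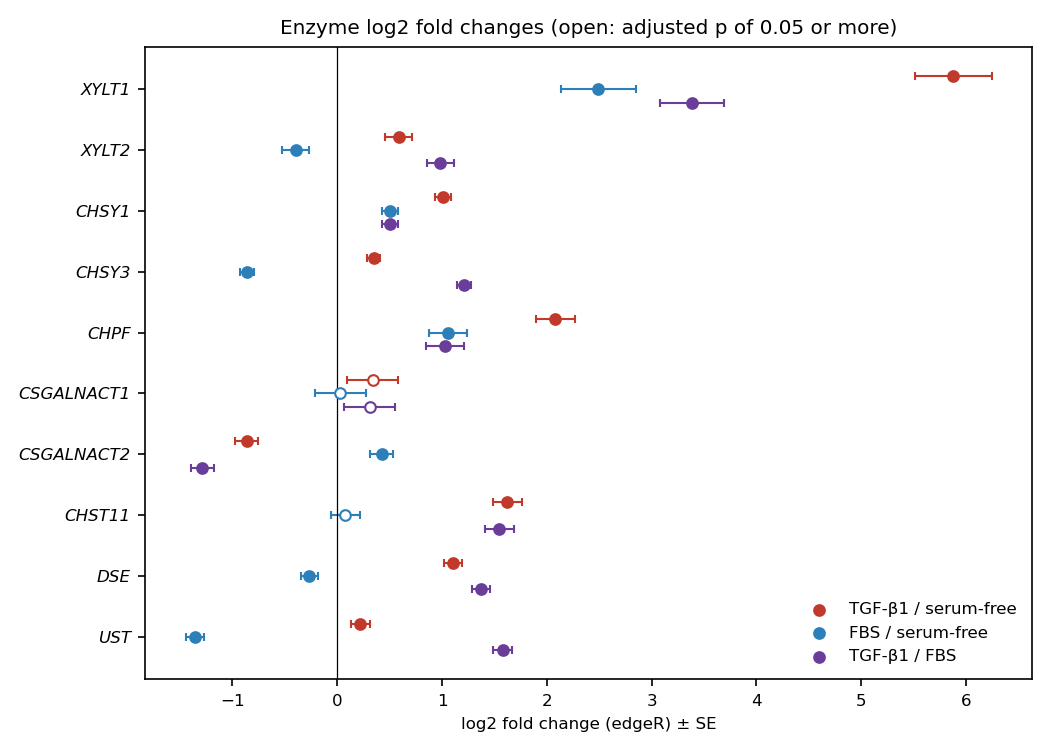
Log2 fold change of each enzyme (horizontal axis, edgeR, bars are SE) for TGF-β1 over serum-free, FBS over serum-free and TGF-β1 over FBS. Open points did not reach an adjusted p under 0.05. CHSY3 and UST had FBS values of -0.86 and -1.36 beside TGF-β1 values of 0.35 and 0.22, and CSGALNACT2 had 0.42 beside -0.86.

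Levels of different enzymes can be set against each other only per length of transcript, for which the authors' FPKM values were used. These values track the TMM-scaled CPM per gene length, not total counts, so differences between conditions rest on that scaling. Summed over the 10 enzymes, FPKM came to 502 ± 31.8 with TGF-β1, 335 ± 12.9 with FBS and 309 ± 13.8 in serum-free medium. The TGF-β1 libraries (461 to 542 FPKM) lay above all others. The most abundant enzyme was CHPF with TGF-β1 (170 ± 45.7 FPKM), CSGALNACT2 with FBS (126 ± 16.4 FPKM) and CSGALNACT2 in serum-free medium (94.1 ± 16.2 FPKM). With TGF-β1 the order after CHPF was CHSY3 (89.8 FPKM), DSE (70.5), CSGALNACT2 (51.7), CHSY1 (49.2), UST (37.2), XYLT2 (18.9), CHST11 (7.46), XYLT1 (6.02) and CSGALNACT1 (0.687). The library ranges of neighbours overlapped from CHSY3 down to CHSY1, and between CHST11 and XYLT1. In FBS the order after CSGALNACT2 was CHPF (83.1 FPKM), CHSY3 (38.8), CHSY1 (34.6), DSE (27.2), UST (12.4), XYLT2 (9.53), CHST11 (2.54), XYLT1 (0.571) and CSGALNACT1 (0.554). Here CHPF overlapped CSGALNACT2, CHSY1 overlapped CHSY3 and DSE, UST overlapped XYLT2, and XYLT1 overlapped CSGALNACT1. In serum-free medium the order after CSGALNACT2 was CHSY3 (70.5 FPKM), CHPF (40.1), DSE (32.7), UST (31.9), CHSY1 (24.5), XYLT2 (12.6), CHST11 (2.41), CSGALNACT1 (0.542) and XYLT1 (0.102), and the ranges of neighbours overlapped from CHPF down to CHSY1. XYLT1 was thus the lowest of the 10 in serum-free medium, with no overlap with CSGALNACT1 above it.

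For 5 chosen pairs of isozymes, the share of 1 isozyme in the FPKM of its pair was compared between conditions. This used a two-sided exact permutation test over libraries, adjusted over the 15 comparisons. Other pairs, such as CHST3 and CHST7, were not compared in this way. XYLT1 made up 22.8% ± 8.41 of the xylosyltransferase level with TGF-β1, 5.74% ± 1.59 with FBS and 0.761% ± 0.344 in serum-free medium. No condition overlapped another, and each difference had adjusted p = 0.000291 by the exact permutation test, from the smallest p that 8 against 8 libraries allow (0.000155). Per length of transcript, XYLT2 therefore remained the more abundant of the pair in every library, since the highest XYLT1 share was 35.2%. That order rests on the annotated lengths, 8000 bases for XYLT1 and 3510 for XYLT2. In TGF-β1 replicate 8, XYLT1 had more counts (1206) than XYLT2 (973). CHSY3 made up 64.6% ± 1.55 of CHSY1 and CHSY3 with TGF-β1, 53.0% ± 1.45 with FBS and 74.3% ± 0.987 in serum-free medium, again with no overlap and the same adjusted p = 0.000291 (exact permutation test). CSGALNACT1 was 1.33% ± 0.257, 0.462% ± 0.250 and 0.611% ± 0.282 of its pair in the same order. The TGF-β1 share was above serum-free (exact permutation adjusted p = 0.000848) and FBS (adjusted p = 0.000518), with ranges that met at their ends, while FBS did not pass against serum-free (adjusted p = 0.275, exact permutation test). The higher share with TGF-β1 went with a lower CSGALNACT2, since CSGALNACT1 itself was not called in any comparison.

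CHST11 made up 28.6% ± 4.71 of CHST11 and CHST12, another chondroitin 4-O-sulfotransferase, with TGF-β1, 23.3% ± 5.39 with FBS and 13.5% ± 1.88 in serum-free medium. CHST13, a further 4-O-sulfotransferase, averaged 0.0485, 0.279 and 0 CPM in the same order, was not tested and is not in this share. The share was above serum-free medium with TGF-β1 (exact permutation adjusted p = 0.000291) and with FBS (adjusted p = 0.000848, exact permutation test), and TGF-β1 against FBS did not pass (adjusted p = 0.0672, exact permutation test). The sets went in opposite directions between these treatments. In set 1 the share was 23.2% to 25.8% with TGF-β1 and 24.2% to 31.1% with FBS. In set 2 it was 28.8% to 35.0% with TGF-β1 and 13.9% to 22.3% with FBS. The higher share with FBS than in serum-free medium went with a lower CHST12. CHST12 was 44.8 ± 2.79 CPM with TGF-β1, 21.5 ± 6.94 CPM with FBS and 37.9 ± 7.79 CPM in serum-free medium (FBS against serum-free -0.82, edgeR adjusted p = 2.00e-05). TGF-β1 did not pass for CHST12 (0.24, edgeR adjusted p = 0.157), but passed with the replicate number as a block (adjusted p = 0.0303). The CHST12 value was 0.55 in set 1 (edgeR adjusted p = 2.56e-05) and -0.02 in set 2 (adjusted p = 0.922), and the difference between the sets was called (adjusted p = 0.0185). DSEL, a close relative of DSE with the same activity, was 138 ± 34.6 CPM with TGF-β1, 81.5 ± 19.3 CPM with FBS and 78.0 ± 23.4 CPM in serum-free medium, and it rose with TGF-β1 (0.82, edgeR adjusted p = 0.000352). DSE made up 73.9% ± 2.92 of the pair with TGF-β1, 64.8% ± 3.48 with FBS and 70.0% ± 5.24 in serum-free medium. The DSE share with TGF-β1 lay above FBS without overlap (exact permutation adjusted p = 0.000291) and did not pass against serum-free medium (adjusted p = 0.0936, exact permutation test), and FBS was below serum-free medium (adjusted p = 0.0466, exact permutation test). These tests ignored the sets, by which the DSE share differed. It was 60.7% to 62.4% with FBS and 64.2% to 67.1% in serum-free medium in set 1, and 67.3% to 68.6% and 71.3% to 76.5% in set 2. Within each set FBS lay below serum-free medium without overlap.

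**Figure D3:**
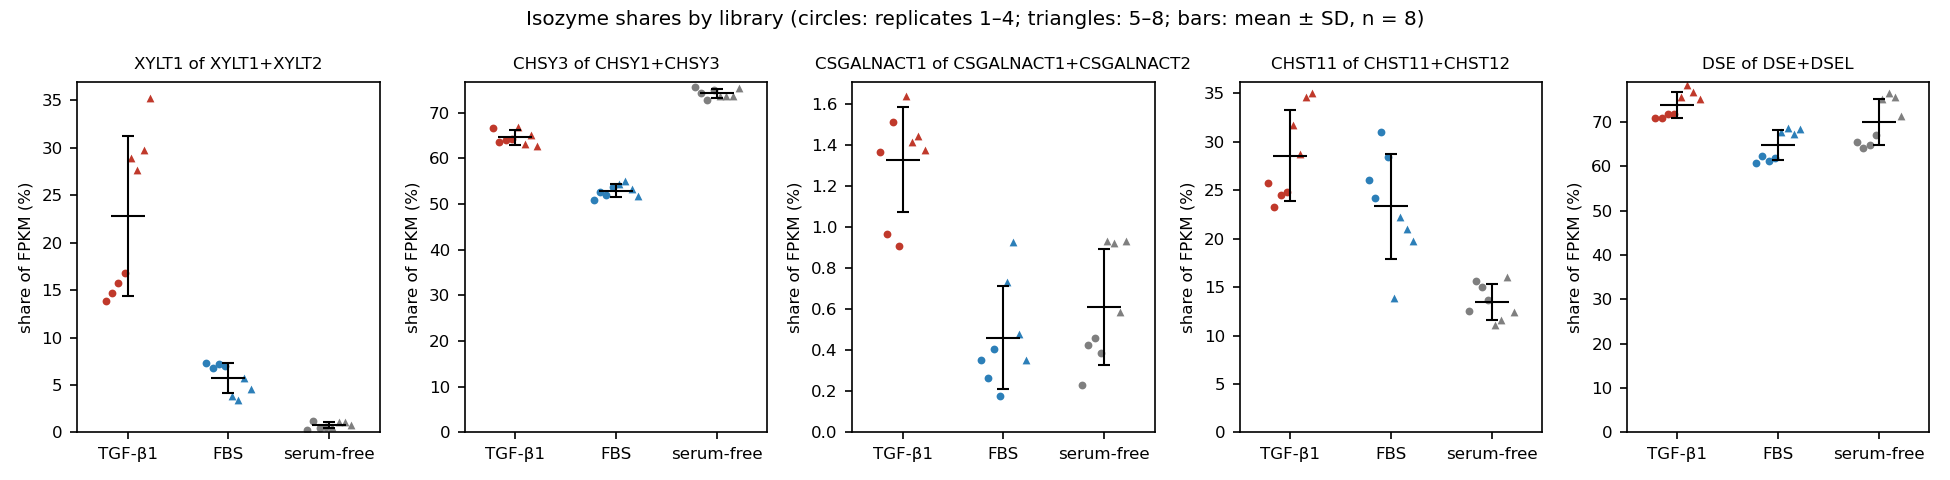
Share of the named isozyme in the summed FPKM of its pair (vertical axis, percent, from 0) in each TGF-β1, FBS and serum-free library, with mean ± SD of 8 libraries. Circles are replicates 1 to 4 and triangles replicates 5 to 8. The XYLT1 share lay at 13.9% to 35.2% with TGF-β1, 3.46% to 7.33% with FBS and 0.245% to 1.18% in serum-free medium.

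Around these enzymes, the rest of the linkage machinery changed by smaller amounts than XYLT1. Of 6 linkage genes tested, which include XYLT1 and XYLT2, 5 were higher and 1 lower with TGF-β1, and 4 were higher and 1 lower with FBS. Of all genes, 64.3% and 80% were called in either direction. Besides XYLT1 and XYLT2, B4GALT7, B3GAT3 and FAM20B were higher and PXYLP1 lower with TGF-β1. With FBS, B4GALT7, FAM20B and PXYLP1 were higher, and the lower gene was XYLT2. B3GAT3 did not pass with FBS (0.21, edgeR adjusted p = 0.164) except with the replicate block (adjusted p = 0.0416). B3GAT3, which adds the glucuronic acid of the linker, rose with TGF-β1 (33.4 ± 1.64 CPM, against 19.5 ± 5.01 CPM in serum-free medium, log2 fold change 0.78, edgeR adjusted p = 2.66e-05), by 1.08 in set 1 and 0.54 in set 2. FAM20B, the kinase that phosphorylates the xylose, rose with FBS (89.9 ± 5.54 CPM, against 51.6 ± 2.78 CPM, log2 fold change 0.80). PXYLP1, the phosphatase that removes that phosphate, fell with TGF-β1 (-0.91, edgeR adjusted p = 1.72e-11) and rose with FBS (1.08, edgeR adjusted p = 1.25e-13). Its libraries ran from 14.4 to 17.7 CPM with TGF-β1, from 56.6 to 71.0 CPM with FBS and from 26.4 to 35.8 CPM in serum-free medium, with no overlap. B3GALT6, a galactosyltransferase of the linker, had 1 count in a single TGF-β1 library and 0 elsewhere and was not tested. On the competing branch, EXT1, a heparan sulfate polymerase, was 123 ± 5.59 CPM with TGF-β1, 142 ± 32.3 CPM with FBS and 36.1 ± 3.33 CPM in serum-free medium (log2 fold changes 1.77 and 1.98 against serum-free, with 1.59 in set 1 and 2.32 in set 2 for FBS). Of the 5 enzymes of that branch, 2 rose and 1 fell with TGF-β1, and 3 rose and 2 fell with FBS, against the same shares of all genes.

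Among sulfotransferases and epimerases, 6 of 9 tested genes were higher and 1 lower with TGF-β1, while 2 were higher and 4 lower with FBS. These 9 include CHST11, DSE and UST. The calls made up 7 of 9 genes against 64.3% of all genes with TGF-β1, and 6 of 9 against 80% with FBS. CHST3, which sulfates the 6-O position of N-acetylgalactosamine, had 73.8 to 120 CPM with TGF-β1, 49.5 to 75.1 CPM with FBS and 6.04 to 13.5 CPM in serum-free medium. It rose in both treatments (3.29 and 2.65, edgeR adjusted p = 1.72e-15 and 2.46e-14), with FBS by 3.198 in set 1 and 2.17 in set 2. CHST7, another 6-O-sulfotransferase, fell in both, at 9.85 ± 5.85 CPM with TGF-β1, 2.18 ± 0.514 CPM with FBS and 29.8 ± 16.1 CPM in serum-free medium (-1.60 and -3.77, edgeR adjusted p = 0.000224 and 1.11e-09), with FBS values of -2.83 in set 1 and -4.29 in set 2. CHST15, which adds a further sulfate to 4-O-sulfated units, rose with FBS, at 5.51 ± 1.01 CPM with TGF-β1, 51.0 ± 10.8 CPM with FBS and 6.29 ± 2.79 CPM in serum-free medium (FBS 3.02, TGF-β1 against FBS -3.21, edgeR adjusted p = 9.19e-13 and 5.77e-13). The FBS value was 3.42 in set 1 and 2.81 in set 2. TGF-β1 against serum-free did not pass for CHST15 (-0.19, edgeR adjusted p = 0.46, with 0.66 in set 1 and -0.81 in set 2). CHST14, the 4-O-sulfotransferase of dermatan sulfate, stayed within 28.9 to 44.4 CPM in all libraries and was 0.18 higher with TGF-β1 (edgeR adjusted p = 0.0462), a call that held in set 1 (0.28, adjusted p = 0.00457) and not in set 2 (0.09, adjusted p = 0.454).

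**Figure D4:**
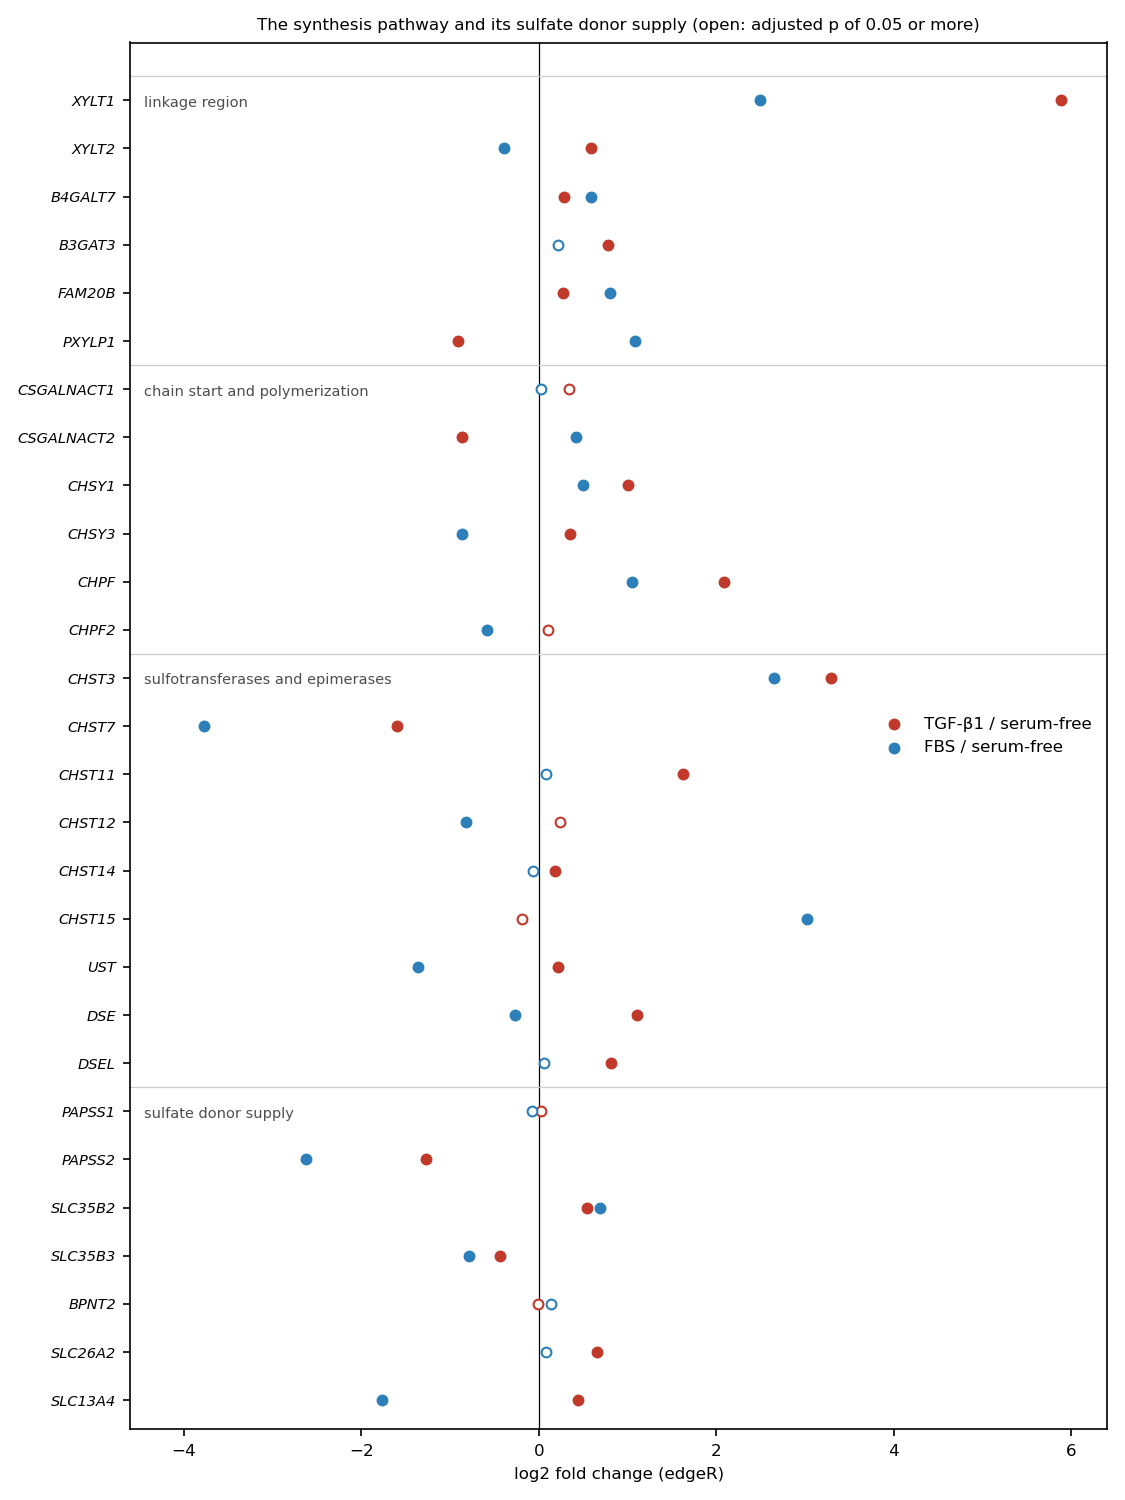
Log2 fold change (horizontal axis, edgeR) over the serum-free libraries for TGF-β1 and for FBS, drawn for tested genes of linkage, polymerization, sulfation and epimerization, and sulfate donor supply. Open points did not reach an adjusted p under 0.05. CHST3 stood at 3.29 with TGF-β1 and 2.65 with FBS, while CHST15 stood at -0.19 and 3.02.

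Among the genes that supply building blocks, some rose and some fell. PAPSS2, which makes the sulfate donor PAPS, fell in both treatments, at 39.2 to 62.7 CPM with TGF-β1, 15.7 to 26.8 CPM with FBS and 89.8 to 136 CPM in serum-free medium (-1.27 and -2.62, edgeR adjusted p = 7.37e-10 and 2.52e-16), while its isozyme PAPSS1 passed in neither (0.02 and -0.08). In set 1 and set 2 PAPSS2 stood at -1.64 and -0.91 with TGF-β1 and at -2.89 and -2.34 with FBS, and PAPSS1 at -0.22 and 0.09 with FBS. Of 7 genes of sulfate donor supply, 3 were higher and 2 lower with TGF-β1, and 1 was higher and 3 lower with FBS. Of 12 nucleotide sugar genes, 6 were higher and 2 lower in each treatment, where 64.3% of all genes were called with TGF-β1 and 80% with FBS. UGDH, which makes UDP-glucuronic acid, was 324 ± 24.5 CPM with TGF-β1, 616 ± 60.4 CPM with FBS and 187 ± 45.9 CPM in serum-free medium, with no overlap (0.79 and 1.72 against serum-free). Its values in set 1 and set 2 were 1.21 and 0.44 with TGF-β1, and 2.17 and 1.33 with FBS.

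The proteins that carry the chains moved in both directions. Of 20 core protein genes tested, 13 were higher and 4 lower with TGF-β1, and 8 were higher and 11 lower with FBS, where 64.3% and 80% of all genes were called. With the replicate block 19 were called with TGF-β1, COL12A1 (0.27, adjusted p = 0.0369 with the block and 0.281 without) and COL14A1 (0.36, adjusted p = 0.00394 and 0.0824) being those gained. Of all 13308 genes, the block fit called 4626 higher and 4759 lower with TGF-β1. DCN, decorin, was 7979 ± 1508 CPM with TGF-β1, 1517 ± 510 CPM with FBS and 23507 ± 3622 CPM in serum-free medium (-1.56 and -3.95 against serum-free, with -4.61 in set 1 and -3.41 in set 2 for FBS). BGN, biglycan, was 5752 ± 887 CPM, 1368 ± 292 CPM and 367 ± 232 CPM in the same order (3.97 and 1.90). In set 1 and set 2 BGN stood at 4.97 and 3.51 with TGF-β1, and at 2.80 and 1.52 with FBS. ACAN, aggrecan, rose 84.4-fold and 10.3-fold, with FBS log2 values of 4.13 in set 1 and 2.56 in set 2. VCAN, versican, rose with TGF-β1 (4.99, with 5.59 in set 1 and 3.67 in set 2) but did not pass with FBS (-0.01, edgeR adjusted p = 0.979). ESM1, endocan, reached 597 ± 77.6 CPM with FBS, against 0.799 ± 0.850 CPM in serum-free medium, and was 3.87 ± 0.713 CPM with TGF-β1. Of 10 breakdown genes tested, 4 were higher and 3 lower with TGF-β1, and 1 was higher and 9 were lower with FBS, against the same shares of all genes. ARSB, which removes 4-O-sulfate from N-acetylgalactosamine, fell in both (-0.73 and -1.71, with FBS values of -2.28 in set 1 and -1.26 in set 2). CEMIP, a member of that list, is known for hyaluronan breakdown.

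The response to treatment differed between the sets of libraries for some enzymes. A set-by-treatment term was called for 2 of the 10 enzymes in TGF-β1 against serum-free (XYLT2 and UST), against 10.3% of all genes. In FBS against serum-free it was called for 5 (XYLT1, XYLT2, CHSY1, CHSY3 and CHPF), against 22.4%, and in TGF-β1 against FBS for 2 (XYLT1 and UST), against 23.9%. In each of these terms but those of XYLT2 with FBS and UST with TGF-β1, both sets passed on their own in the same direction.

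**Figure D5:**
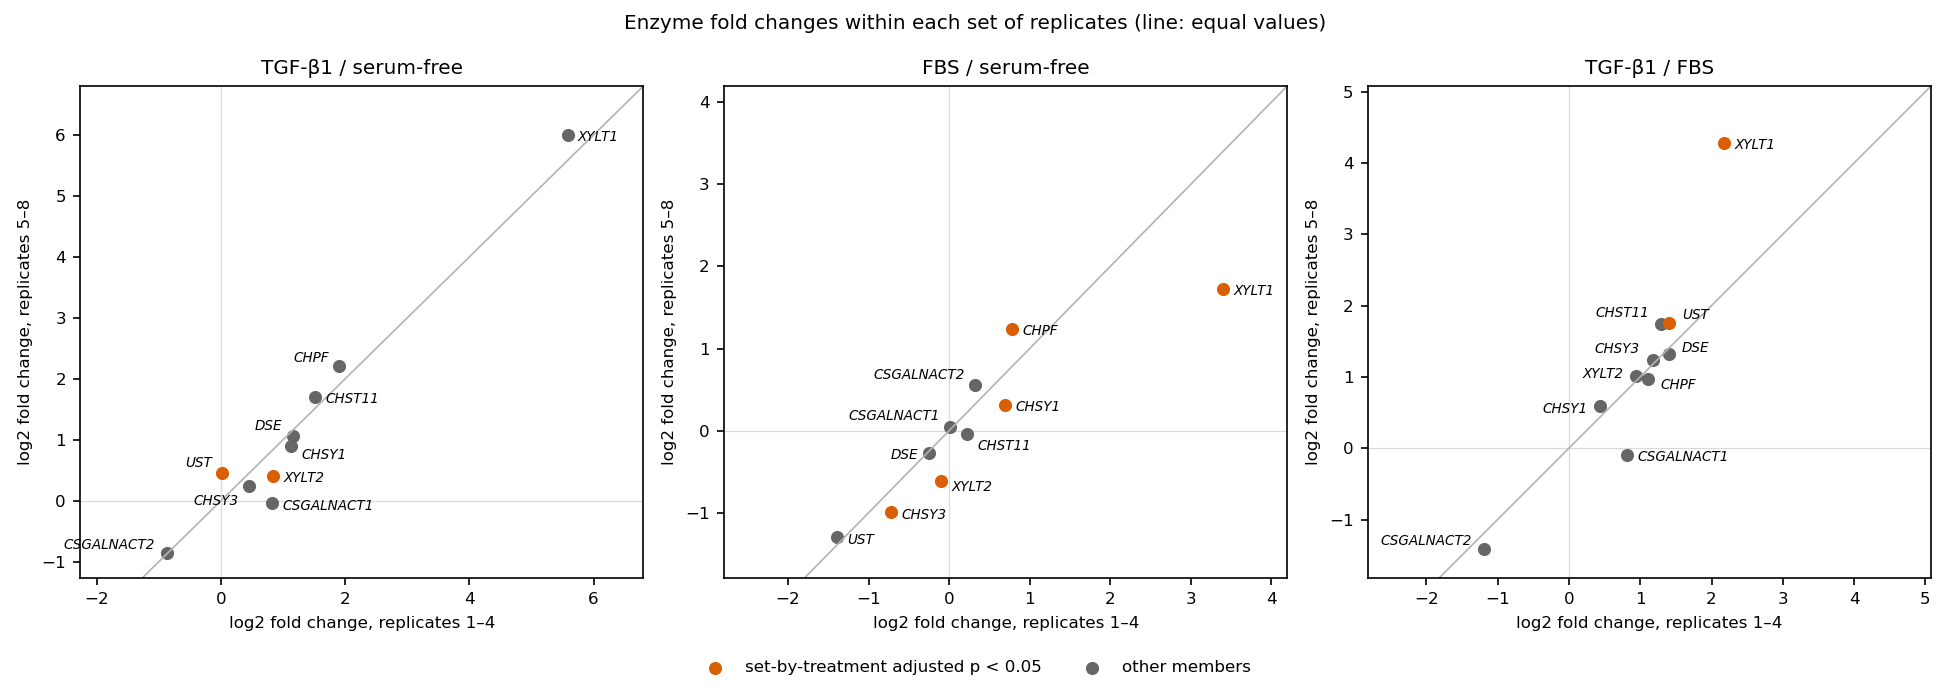
Log2 fold change of each enzyme in replicates 1 to 4 (horizontal axis) and replicates 5 to 8 (vertical axis) for the 3 comparisons, with a line of equal values. Orange points had a set-by-treatment term with an adjusted p under 0.05. XYLT1 lay farthest from the line in FBS over serum-free (3.40 and 1.72) and TGF-β1 over FBS (2.18 and 4.28).

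The genes whose pattern was most like that of each enzyme were sought by Pearson's r of log2(CPM + 1) over the 24 libraries, among 9242 named genes with a mean of at least 5 CPM. These libraries fall into 3 conditions and share their depth and sets, so r is a description only. Nearest to XYLT1 were PTPRM (r = 0.98), DAG1 (0.98) and ACAN (0.98). XYLT2 was nearest to HPS4, TMBIM1 and DNAJB12 (0.96 each), and CHSY1 to SSFA2, NEDD9 and ADCY7 (0.98 each). CHPF was nearest to MPZL1, SDC4 and GDPD5 (0.98 each), CHST11 to LOXL2 and P4HA2 (0.97 each) and ME1 (0.96), and DSE to VASH2 (0.99), RABGEF1 and RNF19A (0.98 each). CHSY3 was nearest to MKX and ITPR1 (0.99 each) and AKAP13 (0.98). Among the 3 nearest to UST were PELI2 and LRIG3 (0.99 each), and among the 3 nearest to CSGALNACT2 were PDE4B (0.98) and RBMX (0.97). The scarce CSGALNACT1 had no close neighbour, with 0.80 for TPGS1.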

How the data were processed

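Bulk RNA-seq of 24 libraries was used, with groups and replicate numbers taken from the labels. The deposited count table holds whole-number counts per gene without normalization, per the file headers and values, and the authors' FPKM table holds the same libraries scaled by gene length and library size. No source used here names the aligner, counting program, strand setting or genome build, so reads of overlapping or antisense genes may be shared. Of the 10 enzymes, CHST11 overlaps another annotated gene, which had almost no counts. No sequences are shown, because no sequence table for rabbit was used here.

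Counts were filtered with filterByExpr (13308 genes), scaled by TMM and fitted together in R 4.3.3 with edgeR 4.0.16, with 1 coefficient per condition. P-values of the quasi-likelihood test had Benjamini-Hochberg adjustment across the whole table, and a gene is called at an adjusted p under 0.05. Set-by-treatment terms came from a fit with 1 coefficient per condition and set. The fits were first tested on simulated counts, drawn independently for each library and with no set difference among the unchanged genes. Such a simulation cannot show how the p-values act where libraries of a set deviate together. Isozyme shares used the deposited FPKM and exact permutation tests (scipy 1.17.1). Alternatives used DESeq2 1.42.0, limma 3.58.1 on log2(FPKM + 0.1), other scalings, filters, covariates and subsets of libraries. Of 121 genes on the lists, 116 were found, with BPNT2 under its older symbol IMPAD1 and ITGAM by its gene number.

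The members, gene lists and tests were chosen with earlier results of these data known. Named genes are all members, the called genes of each list with the largest changes and its most abundant genes not called, the partners of isozyme pairs, and the 3 genes most like each member. Some of these are not reported here, and B3GALT6 and the cell type markers were named after their values were seen. Total counts of 15410285 to 22528261 per library limit precision mainly for CSGALNACT1 and for XYLT1 in serum-free medium. Same-numbered libraries deviated together (r of log2 CPM residuals at least 0.208, 0.143 and 0.149 in the 3 comparisons, over all genes), so the replicate number was also used as a block. Residuals were taken from condition means over both sets, so r also holds the set difference. Whether same-numbered libraries are linked beyond their set was not tested. No library duplicated another: between libraries of 1 condition, the squared difference was at least 2.86 times the counting variance per gene.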

Additional observations from a re-analysis of the deposited data

Results flagged for a closer look

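Differences between the sets of libraries (set 2 minus set 1, edgeR set-by-treatment term) passed for 2 enzymes in TGF-β1 against serum-free, 5 in FBS against serum-free and 2 in TGF-β1 against FBS, while 10.3%, 22.4% and 23.9% of all genes passed. What separates the sets was not tested. In TGF-β1 against serum-free the difference was -0.44 for XYLT2 (0.40 in set 2 and 0.84 in set 1, adjusted p = 0.0442) and 0.43 for UST (0.45 and 0.02, adjusted p = 0.00819). In FBS against serum-free it was -1.68 for XYLT1 (1.72 and 3.40, adjusted p = 0.00202), -0.52 for XYLT2 (-0.61 and -0.09, adjusted p = 0.0101) and -0.38 for CHSY1 (0.31 and 0.69, adjusted p = 0.00892). It was -0.28 for CHSY3 (-0.996 and -0.72, adjusted p = 0.0132) and 0.45 for CHPF (1.24 and 0.79, adjusted p = 0.014). In TGF-β1 against FBS it was 2.10 for XYLT1 (4.28 and 2.18, adjusted p = 4.91e-07) and 0.35 for UST (1.76 and 1.41, adjusted p = 0.0209).

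A single library lay far from the others of its condition in 2 of the 45 groups searched (30 of enzyme levels and 15 of isozyme shares), and chance gives about 1 in 20 groups, so 2 cases are near what chance gives. CHSY3 was 266 CPM in serum-free replicate 7, with the next library at 251 CPM. CHST11 was 6.64 CPM in FBS replicate 6, with the next at 5.14 CPM.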

How the results depend on the processing

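Of the enzymes' fold changes under settings that left out no single library or pair, 291 kept their side of the threshold, 3 gained a call and 6 lost one. No called change reversed direction. Some changes that passed under neither setting did, such as CSGALNACT1 with TGF-β1 against serum-free medium in set 2 (-0.04, against 0.34 pooled). Scaling by total counts left 2 enzymes lower with FBS in place of 4. It turned the share of called genes that were higher to 37.5% (48.5% with TMM) for TGF-β1 against serum-free and to 31.5% (50.4%) for TGF-β1 against FBS, and the median of all genes to -0.17 and -0.39. For FBS against serum-free that share was 58.3% (49.4%) and the median 0.21. With 1 library, or FBS replicates 5 and 6, left out, TGF-β1 against serum-free gave 7 to 8 enzymes higher and 1 lower, FBS against serum-free 4 higher and 3 to 4 lower, and TGF-β1 against FBS 8 to 9 higher and 1 lower. With the replicate block 9, 8 and 9 enzymes were called, and no enzyme's call changed. Of all 13308 genes, that fit called 4626, 5488 and 5243 higher and 4759, 5616 and 5068 lower in the same comparisons. The set-by-treatment count for TGF-β1 against serum-free was 1 with DESeq2-type size factors and 1 with no filter. Among the shares, DSE of its pair passed for TGF-β1 against serum-free in set 1 (5.90 points, adjusted p = 0.033). CHST11 of its pair missed in set 2 for FBS against serum-free (6.44 points, adjusted p = 0.0659) and passed there for TGF-β1 against FBS (13.3 points, adjusted p = 0.0357), all by exact permutation tests. In set 1 the CHST11 share leaned the other way, at 23.2% to 25.8% with TGF-β1 and 24.2% to 31.1% with FBS. Leaving out FBS replicates 5 and 6 was chosen after seeing the data. CSGALNACT1 had at most 69 counts per library and its sets differed in direction for TGF-β1, and what keeps it from a call was not tested.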
